A study of Homo sapiens with 12 samples.

Results

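The comparison described here is between PC-3 cells with stable PIM1 overexpression that were transiently transfected with wild-type (WT) NFATC1 and the same PIM1 cells transfected with the multi mutant (MM) of NFATC1. PC-3 cells are a human line grown from a prostate adenocarcinoma. The members were the 4 of 12 samples whose labels name these states, 2 PIM1 + WT samples labelled with Cy3 and 2 PIM1 + MM samples labelled with Cy5, and every gene on the array was tested. Each of 2 two-colour whole-genome arrays, 1 on each of 2 slides, carried 1 sample of each group. The other groups, with 2 samples each, were control cells and PIM1 cells without transfected NFATC1, and cells without stable PIM1 that received WT or MM NFATC1 (WT and MM). All 4 samples compared carry the stable PIM1 transgene, so the contrast asks what the form of NFATC1 changes when PIM1 is in excess, and both forms were expressed beside the cells' own NFATC1. The methods and the results of the study name different times between transfection and RNA extraction. Nothing in the labels says that the replicates came from separate transfections, so the p-values measure the spread between these samples, which may be technical.

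NFATC1 is a transcription factor that is held in the cytoplasm by phosphorylation and enters the nucleus when the calcium-dependent phosphatase calcineurin removes phosphates from its regulatory region. In the nucleus it binds DNA with the core GGAAA, often next to AP-1 factors of the JUN and FOS families. PIM1 is a serine/threonine kinase that is active without an activating phosphorylation and is known for promoting survival and motility of prostate cancer cells. The MM form is full-length and was designed to carry alanine in place of 7 serines and 3 threonines that the study treats as PIM1 target sites. Ser151, Ser153, Thr154 and Ser256 among them were found phosphorylated in PC-3 cells but not by PIM1 in vitro.

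The 10 exchanges that the study lists are shown as the 5 forward mutagenesis oligos used to make them, because they define the MM form. Each is given 5′ to 3′ with the wild-type stretch first, and capitals mark the bases that the oligo design marks as altered.

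Ser245, wild-type: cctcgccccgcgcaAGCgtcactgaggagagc
Ser245, mutant: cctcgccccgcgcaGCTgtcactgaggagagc
Ser269, wild-type: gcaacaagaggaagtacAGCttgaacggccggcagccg
Ser269, mutant: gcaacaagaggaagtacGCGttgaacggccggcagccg
Ser151 + Ser153 + Thr154, wild-type: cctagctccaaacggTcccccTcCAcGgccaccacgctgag
Ser151 + Ser153 + Thr154, mutant: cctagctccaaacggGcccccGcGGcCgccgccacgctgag
Ser256 + Ser257, wild-type: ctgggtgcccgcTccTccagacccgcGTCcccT
Ser256 + Ser257, mutant: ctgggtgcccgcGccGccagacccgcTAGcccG
Ser335 + Thr338 + Thr339, wild-type: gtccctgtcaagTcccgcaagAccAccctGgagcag
Ser335 + Thr338 + Thr339, mutant: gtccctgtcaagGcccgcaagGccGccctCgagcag

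Ser245 and Ser269 were each exchanged by replacing the serine codon, with 3 differing bases per oligo. Another oligo altered Ser151, Ser153 and Thr154 together, and it differs from the wild-type stretch at 6 bases, of which the last, a to g, is not marked in the design. In the frame of the marked codons, that base turns acc, for threonine, into gcc, for alanine. As printed, the oligo thus encodes an exchange beyond those listed, and no source used here says whether the plasmid carries it. The remaining oligos altered Ser256 with Ser257, and Ser335 with Thr338 and Thr339.

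The labels were first set against PIM1 and NFATC1 themselves. All values are log2 fluorescence intensities after quantile normalization between the 12 channels, and a difference of 1 on this scale is a doubling. NFATC1 was read by 2 probes. The probe designed on transcript NM_172390 read 7.94 and 8.01 in the PIM1 + WT samples and 11.98 and 11.92 in the PIM1 + MM samples, a difference of -3.98. The probe designed on NM_172387 read 7.20 and 7.17 against 7.31 and 7.37, a difference of -0.15. Thus 1 probe was far higher with MM than with WT NFATC1 and the other differed little, and no source used here says whether the plasmids hold the region that each probe binds. The gene value, the median of both probes, was 7.57 and 7.59 against 9.65 and 9.65, with a log2 fold change of -2.07 ± 0.07 (SE; limma adjusted p = 9.29e-06). In PIM1 cells without a plasmid the NM_172390 probe read 6.58 and 6.19, not well above background, so on this probe both forms stood above the cells' own NFATC1, and MM much further than WT. The amounts of NFATC1 transcript reached by the transfections therefore cannot be told apart from the form of NFATC1 in this contrast. PIM1 read 9.90 and 9.96 in PIM1 + WT and 10.21 and 10.36 in PIM1 + MM cells, lower by -0.36 ± 0.10 (SE; limma adjusted p = 0.0401). PIM1 cells without NFATC1 had 10.32 and 10.08 and control cells 10.05 and 9.85, so the PIM1 signal did not separate the samples labelled as overexpressing PIM1 from those that are not. No source used here says whether the transgene holds the region that the PIM1 probe binds, and the array gives no check of the stable overexpression. The study also measured PIM1 and NFATC1 transcripts by quantitative PCR, which is not analysed here.

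The epithelial keratins KRT18 and KRT19 were bright in all 4 samples, at 13.91 to 14.15 and 15.75 to 16.20, and the epithelial adhesion molecule EPCAM was lower with WT NFATC1, by -0.33 (limma adjusted p = 0.0293). None of the 10 tested markers of blood, endothelium and fibroblasts passed the adjusted p by limma. The 2 PIM1 + WT channels were the dimmest of the 12, with a median raw signal of 102 and 86 against 292 and 192 for PIM1 + MM, and their spike-in controls lay at 10.37 and 10.48 after normalization against 10.92 to 11.39 in the other Cy3 channels. The part of these channel differences, and of the dye, in the results below was not tested, since no array of this contrast has its dyes swapped.

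In the contrast, 88 of 25471 genes (0.345%) had an adjusted p under 0.05 and a log2 fold change of at least 1 in either direction, which is what "called" means here. The called genes were nearly all higher with WT NFATC1, 83 of them (0.326% of the genes tested), and 5 were lower (0.0196%). Every called gene had the same sign on both arrays and no overlap between the groups, which held in either direction for many genes, since both PIM1 + WT samples lay above both PIM1 + MM samples for 23.4% of all genes and below them for 33.6%. In RNA from whole cultures, a lower level in each cell and fewer cells with a transcript cannot be told apart. At the adjusted p alone the directions were close to even, with 2179 genes higher (8.55%) and 1929 lower (7.57%), and the median over all genes was -0.03. The study published 50 genes from this same contrast, and 41 of the called genes are on that list, which was chosen on these samples and is no independent evidence. The other 47 are described here. They are 32 genes with a symbol that were higher, 10 probes without a matched symbol that were higher, and all 5 that were lower. The count of 88 was 21 with median centring, 162 with loess and 350 with the processed signal (281 higher and 69 lower), and it was 245 when PIM1 + MM replicate 1 was left out.

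**Figure D1:**
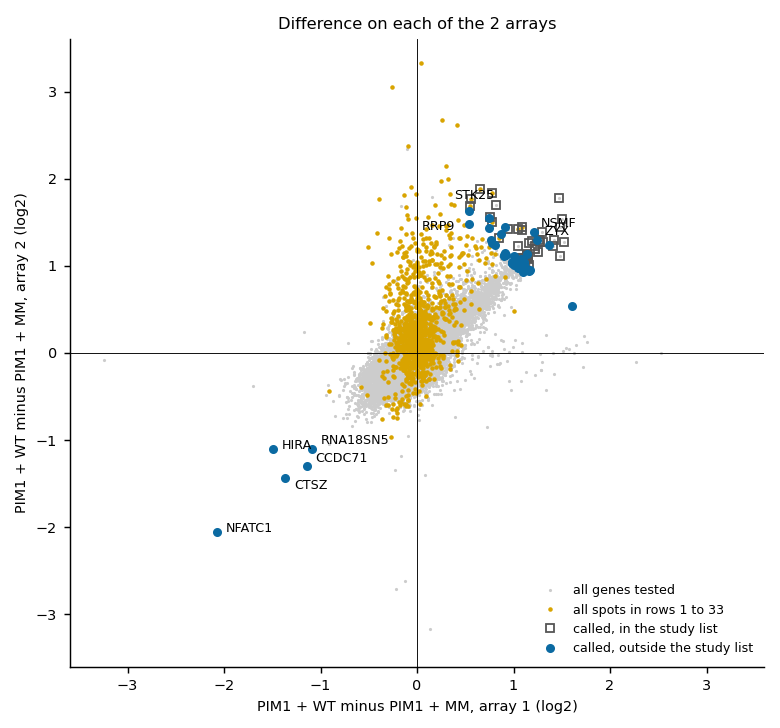
Log2 difference between PIM1 + WT and PIM1 + MM cells on array 1 (x axis) and array 2 (y axis) for each gene tested. Called genes lie in the upper right, except 5 in the lower left, and genes with all spots in rows 1 to 33 (yellow) spread upward on array 2, among them STK25 and RRP9.

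The 32 genes spanned log2 fold changes of 1.00 to 1.30, with a median of 1.03 over both arrays together, 1.06 on array 1 and 1.04 on array 2. They were bright, with a median level at percentile 84.0 of all genes, and 21 lay above percentile 75. When the genes were split by mean level into 5 bins, the 83 called higher fell into the upper 3, with 12, 36 and 35 genes from the middle bin to the brightest. In all 32, the mean of PIM1 + WT was the highest of the 6 groups, as it was for 4869 of all 25471 genes. The 32 were chosen for high values in PIM1 + WT, so nothing is read from that count.

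One group among the 32 were genes for proteins of the actin cytoskeleton and of cell adhesion. ZYX encodes zyxin, a LIM protein of focal adhesions and stress fibres. It read 14.07 and 14.08 in the PIM1 + WT samples and 12.83 and 12.79 in the PIM1 + MM samples. The groups did not overlap, and the log2 fold change was 1.27 ± 0.06 (SE; limma adjusted p = 1.71e-05). PDLIM7, another LIM protein that binds actin filaments, was higher by 1.06 ± 0.06 (adjusted p = 3.56e-05) as the median of 3 probes that did not agree. The probes differed by 1.40, 1.11 and -0.06. The one at -0.06 read 12.27 and 12.31 in PIM1 + WT, near the brighter of the others at 12.36 and 12.28. In PIM1 + MM it was the brightest, at 12.32 and 12.39 against 11.26 and 11.16. The median thus came from different probes in different samples, and the gene value mixes them. ACTBL2, an actin-like gene, read 10.77 and 10.89 against 9.72 and 9.83, higher by 1.06, but the sequence of its probe was not used here and signal from near-identical actins cannot be told apart. ACTB itself was higher by 0.39. ACTN4, which crosslinks actin, FLNC, a filamin, and MYL9, the regulatory light chain of non-muscle and smooth muscle myosin, were higher by 1.01, 1.01 and 1.03. Among the adhesion molecules outside the cell, LAMA5, a laminin chain of basement membranes, was higher by 1.04, and ITGA3, the integrin alpha chain that binds laminins, by 1.01 ± 0.06 (adjusted p = 4.02e-05).

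Of the 88 tested genes in a list of focal adhesion and actin regulators, 9 were called higher and 0 lower, where 0.326% and 0.0196% of all genes were. At the adjusted p 32 passed as higher (36.4%, against 8.55% of all genes and 15.4% of the genes with a level above the median) and 9 as lower (10.2%, against 7.57% and 14.2%). The list's median was 0.12, against -0.03 over all genes. The list was chosen with earlier results of these data known, and 7 of its tested members are on the published list. Its shares are therefore a description only. Of the 9 called, 5 are on the published list, and several depend on the position of their spots, on the probe or on the processing. ACTN3 has all its spots in array rows 1 to 33 and was at 0.72 with them left out of PIM1 + MM replicate 2. MYL9 was at 0.91 without rows 1 to 44 of that channel, as described below, and each of these values rests on 1 PIM1 + MM sample. INF2 stood at -0.355 on its brightest probe. ACTN4 was at 0.985 without rows 1 to 44 of that channel, and FLNC at 0.985 with another background correction. Below the fold threshold, TLN1, the integrin activator talin, was higher by 0.98, and the actin dynamics genes CFL1 and PFN1 by 0.84 and 0.82. The lower ones included ENAH, an actin polymerase, at -0.44, and CFL2 at -0.47. The integrin chains did not move as a family. Of 25 tested, ITGA3 and ITGA5 were the 2 that were called higher, ITGAV and ITGB2 passed the adjusted p as lower at -0.37 and -0.42, 21 did not pass, and the list's median was -0.08. ITGA5, the fibronectin receptor chain that the study followed up, read 10.66 and 10.57 in PIM1 + WT and 9.49 and 9.57 in PIM1 + MM cells, higher by 1.08 ± 0.09 (adjusted p = 0.000104). It belongs to the published 50.

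**Figure D2:**
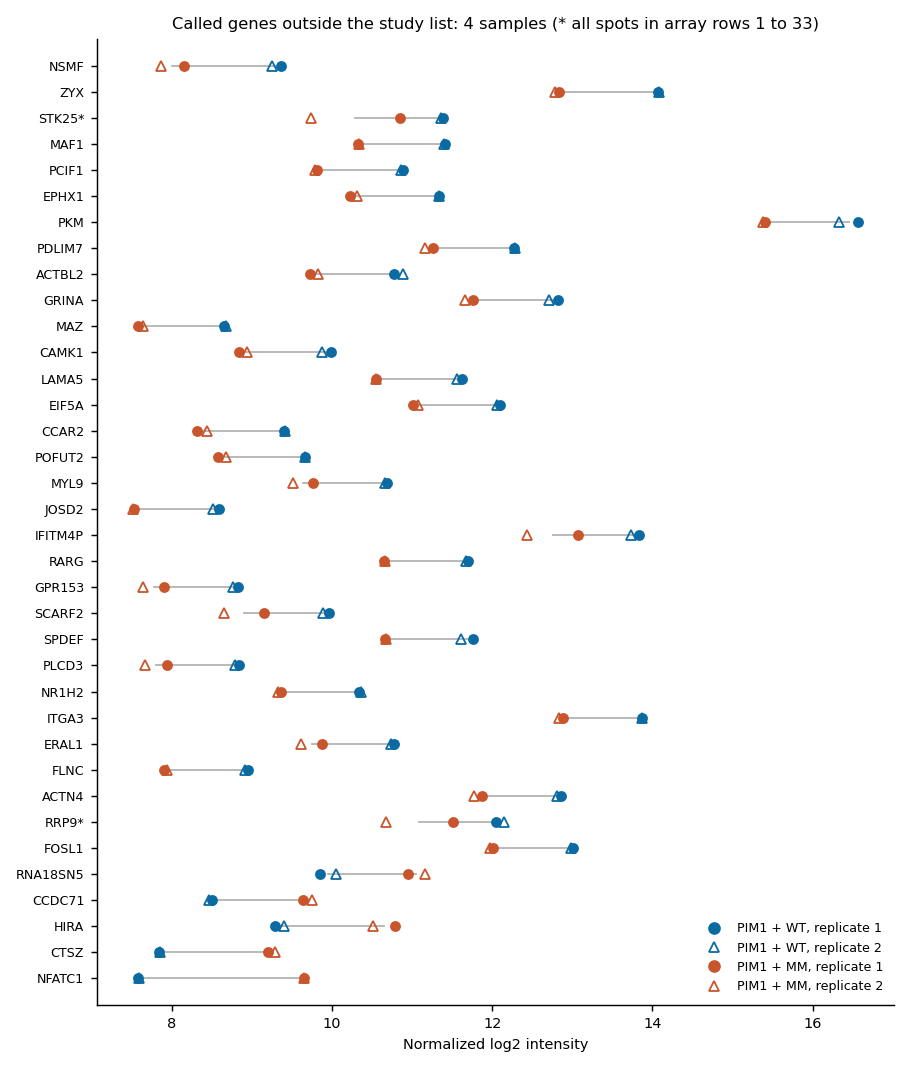
Normalized log2 intensity (x axis) of 36 called genes with a symbol outside the published list in each of the 4 samples, with a grey line between the group means. The PIM1 + WT samples lie to the right of both PIM1 + MM samples for the 31 upper genes and to the left for the 5 at the bottom, and the 2 PIM1 + MM samples stand far apart for STK25, RRP9 and IFITM4P.

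Metabolic enzymes formed another group. PKM, pyruvate kinase of the last step of glycolysis, read 16.57 and 16.33 in PIM1 + WT and 15.40 and 15.38 in PIM1 + MM cells, higher by 1.06 ± 0.10 (limma adjusted p = 0.000181). EPHX1, the microsomal epoxide hydrolase, read 11.33 in both PIM1 + WT samples and 10.22 and 10.31 in PIM1 + MM cells, higher by 1.07 ± 0.06 (adjusted p = 3.45e-05). The groups did not overlap for either enzyme, and the PIM1 + MM samples were the more tightly grouped for PKM. Of the 19 tested glycolysis genes, 8 passed the adjusted p as higher (42.1%, against 8.55% of all genes and 15.4% of those with a level above the median) and 2 as lower (10.5%, against 7.57% and 14.2%), with a median of 0.27. PFKL and ENO1 were higher by 0.78 and 0.69 and GAPDH by 0.58, while the glucose transporter SLC2A1 was lower at -0.32. PKM was the 1 that was called.

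Regulators of transcription and RNA were the next group. MAF1, a repressor of RNA polymerase III, read 11.41 and 11.40 in PIM1 + WT and 10.33 in both PIM1 + MM samples, higher by 1.07 ± 0.06 (limma adjusted p = 3.45e-05). PCIF1, which methylates adenosine next to the mRNA cap, read 10.88 and 10.86 against 9.81 and 9.78, higher by 1.07 ± 0.25 (adjusted p = 0.0187). Its standard error is estimated over all groups, and the 2 MM samples without stable PIM1 read 8.98 and 9.78. The call was lost whichever of the 4 samples was left out. MAZ, a zinc finger factor that binds G-rich promoters, was higher by 1.05, with its 2 probes at 0.75 and 1.36. The nuclear receptors RARG, for retinoic acid, and NR1H2, for oxysterols, were higher by 1.03 and 1.01. SPDEF, an ETS factor of prostate epithelium, and CCAR2, a nuclear regulator of deacetylases and apoptosis, were higher by 1.02 and 1.04. FOSL1, an AP-1 subunit of the FOS family, read 13.01 and 12.98 against 12.01 and 11.98, higher by 1.00 ± 0.06 (adjusted p = 3.56e-05), so its fold lay right at the threshold. In translation, EIF5A, the elongation factor that carries hypusine, ERAL1, a mitochondrial ribosome assembly factor, and RRP9, a component of the U3 snoRNP, were higher by 1.04, 1.01 and 1.01.

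Signalling and membrane genes made up the rest. NSMF, which codes for a protein that carries signals from synapses to the nucleus in neurons, read 9.36 and 9.25 in PIM1 + WT and 8.15 and 7.86 in PIM1 + MM cells. At 1.30 ± 0.12 (limma adjusted p = 0.000181) it had the largest difference of the 32. STK25, a kinase of the Ste20 family, read 11.39 and 11.35 against 10.85 and 9.73, higher by 1.08 ± 0.27 (adjusted p = 0.0266). Its PIM1 + MM samples stood far apart, for which the position of its spots is given below. CAMK1, a kinase activated by calcium and calmodulin, was higher by 1.05 and PLCD3, a phospholipase C, by 1.01. GRINA, a membrane protein of the TMBIM family, was higher by 1.06, the scavenger receptor family gene SCARF2 by 1.02 and the orphan receptor GPR153 by 1.02. POFUT2, which adds O-fucose to secreted proteins, and JOSD2, a deubiquitinase, were each higher by 1.03. IFITM4P, a pseudogene of the interferon-induced IFITM family, was higher by 1.03 ± 0.16 (adjusted p = 0.00297), while its coding relatives IFITM2 and IFITM3 were higher by 0.66 and 0.62, and signal from these near-identical copies cannot be told apart.

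Upstream sequence is shown for ZYX and NSMF, the 2 of the 32 genes for which the difference itself differed from that in cells without stable PIM1 (below), and for HIRA, which had such a difference in the opposite direction. Each is the 250 bases before the annotated start in RefSeq, with capitals for every GGAAA or its reverse complement TTTCC, the core that NFAT factors bind.

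ZYX promoter, GRCh38.p14, chr7:143381095-143381344, plus strand: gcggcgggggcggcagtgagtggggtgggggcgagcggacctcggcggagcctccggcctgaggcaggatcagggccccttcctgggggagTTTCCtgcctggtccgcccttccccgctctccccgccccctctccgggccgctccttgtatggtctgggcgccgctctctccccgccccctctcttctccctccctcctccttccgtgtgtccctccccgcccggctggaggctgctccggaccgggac
NSMF promoter, GRCh38.p14, chr9:137459335-137459584, minus strand: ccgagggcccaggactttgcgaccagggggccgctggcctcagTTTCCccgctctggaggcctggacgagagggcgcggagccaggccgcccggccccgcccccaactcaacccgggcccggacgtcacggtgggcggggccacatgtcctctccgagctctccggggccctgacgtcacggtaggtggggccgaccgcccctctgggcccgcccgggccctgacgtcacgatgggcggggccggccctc
HIRA promoter, GRCh38.p14, chr22:19431734-19431983, minus strand: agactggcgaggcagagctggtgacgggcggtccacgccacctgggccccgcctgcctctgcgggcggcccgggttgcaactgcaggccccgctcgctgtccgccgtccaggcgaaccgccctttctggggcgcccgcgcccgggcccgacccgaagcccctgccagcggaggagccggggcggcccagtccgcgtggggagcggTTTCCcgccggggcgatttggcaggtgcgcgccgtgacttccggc

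Each holds 1 match to the core, which begins 159, 207 and 45 bases before the start. Among the 14638 tested genes with an upstream sequence, 54.4% hold the core on either strand in this window, so a match is common and is a description of the letters only. No AP-1 site, TGANTCA, was found in these 3 windows, and 4.97% of all windows hold one. Of the 32 genes 24 had an upstream sequence, too few for a comparison of base composition or motifs, which is therefore void.

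The 5 called decreases were NFATC1 and 4 others. CTSZ, a lysosomal carboxypeptidase of the cathepsin family, read 7.84 and 7.86 in PIM1 + WT and 9.20 and 9.29 in PIM1 + MM cells, lower by -1.40 ± 0.09 (limma adjusted p = 3.8e-05). The same direction and size were seen without stable PIM1, where WT cells had 9.21 and 9.17 and MM cells 10.61 and 10.47. HIRA, the chaperone that deposits the replacement histone H3.3, read 9.29 and 9.40 against 10.79 and 10.51, lower by -1.30 ± 0.11 (adjusted p = 0.00011). In WT and MM cells HIRA read 11.18 to 11.31, and in PIM1 cells 10.08 and 9.86, so that PIM1 + WT cells had the lowest level of all groups. CCDC71, a coiled-coil gene of little known function, read 8.50 and 8.46 against 9.64 and 9.75, lower by -1.22 ± 0.07 (adjusted p = 3.56e-05). In the 10 samples outside PIM1 + WT it lay between 9.36 and 9.75, so its decrease was found in the PIM1 + WT samples alone. RNA18SN5, a gene of the 18S ribosomal RNA, read 9.85 and 10.05 against 10.94 and 11.16, lower by -1.10 ± 0.09 (adjusted p = 0.000117). Its level was 12.27 to 13.19 in the 6 samples without stable PIM1, above both groups compared here.

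The 5 next decreases at the adjusted p did not reach the fold threshold. ZCCHC2, a zinc finger gene, was at -0.98 ± 0.11 (limma adjusted p = 0.000437) and INCENP, the scaffold of the chromosomal passenger complex of mitosis, at -0.75 ± 0.08. BRWD1, a bromodomain gene, stood at -0.76, but of its 5 probes 1 gave -0.76 and the others lay between -0.18 and 0.06. PBX2, a homeobox factor, and TMEM167A, a protein of the secretory pathway, were each at -0.72. The reference genes ACTB, GAPDH and TBP gave 0.39, 0.58 and -0.10, and TBP turned to 0.04 with loess and 0.19 with median centring.

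Other lists put these genes in context. Since the genes that passed were bright, the shares are set beside those of all genes and of the 12749 genes with a level above the median, where 15.4% passed the adjusted p as higher and 14.2% as lower. Among the regulators of NFAT, 4 of 24 passed as higher and 6 as lower. PPP3CA and PPP3R1, the catalytic and regulatory chains of calcineurin, were lower by -0.34 and -0.41, and so was RCAN1, an inhibitor of calcineurin that NFAT induces, at -0.40. PRKACA, the catalytic chain of protein kinase A, was called higher at 1.13 and belongs to the published list. FKBP1A, which binds calcineurin when loaded with tacrolimus, and the calmodulin gene CALM3 were higher by 0.72 and 0.56. Of 23 tested NFAT target genes 0 were called higher, 2 passed the adjusted p as higher and 2 as lower, NFATC1 and RCAN1. The AP-1, ETS and EGR factors had 10 of 31 higher and 1 lower, with JUND, JUNB and ETV4 of the published list called beside FOSL1, at 1.24, 1.11 and 1.27.

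The lists with the largest shares of members higher at the adjusted p were tubulin and the gamma-tubulin ring (43.5%), glycolysis (42.1%), JAK and related kinase signalling (38.2%), glycosylation and folding in the endoplasmic reticulum (37.9%), focal adhesion and actin (36.4%) and chromatin regulators (34.3%). All lists were chosen with earlier results of these data known. In the same order, 1 of 23, 0 of 19, 5 of 34, 1 of 29, 7 of 88 and 4 of 70 tested members are on the published list. The shares and their order are therefore a description only. Of the chromatin list, 24 of 70 were higher and 7 lower, with the histone deacetylase HDAC7 at 0.81 and the methyltransferase DOT1L at 0.74 beside HIRA at -1.30. Lysosomal genes held 10 of 39 higher and 5 lower, with CTSD at 0.96 and the saposin precursor PSAP at 0.79 on one side and CTSZ at -1.40 on the other. The cytosolic ribosome had 10 of 82 higher (12.2%) and 18 lower (22.0%), with a median of -0.08. Complex I of the respiratory chain had 4 of 36 higher (11.1%) and 7 lower (19.4%), with a median of -0.13. Above the median level the shares were 15.4% and 14.2%, and the complex I counts are too small to set apart from them. Of the replication-dependent histones 2 of 64 were higher and 10 lower, and in the S phase list 7 of 38 were higher and 4 lower. Genes of vesicle traffic had 21 of 79 higher and 9 lower, those of splicing and mRNA processing 21 of 80 and 8, and ubiquitin ligases 12 of 46 and 3.

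The same genes were read in the comparisons that surround this one, and the values are given side by side. WT minus MM in cells without stable PIM1 shares no sample with PIM1 + WT minus PIM1 + MM but has the same dyes on each side, while the interaction and the comparisons within a dye share samples with it. Since the 32 genes were chosen on the PIM1 + WT and PIM1 + MM samples, the shares of all genes are printed beside the counts in those comparisons as background, and nothing is read from the contrast between them. WT minus MM was positive for all 32 genes, but its median was 0.26 and 0 of them were called, where 3 genes in all (0.0118%) were called. By limma, 4 of the 32 passed the adjusted p there, and 0.546% of all genes passed it as higher. The difference between both contrasts, the interaction, in which a dye difference fixed for a gene drops out, was called for 13 genes in all (0.051%), 9 as higher (0.0353%) and 4 as lower (0.0157%). Among the 32 its median was 0.78, 24 passed the adjusted p (1.71% of all genes passed it as higher), and 2 were called, NSMF at 1.12 ± 0.17 (adjusted p = 0.0145) and ZYX at 1.07 ± 0.08 (adjusted p = 0.00233). Of the 4 other decreases, CCDC71 and HIRA were called in it, at -1.22 ± 0.11 and -1.35 ± 0.15, while RNA18SN5 was at -0.80 and CTSZ at -0.05 ± 0.12 (SE), the difference of -1.40 with and -1.35 without stable PIM1. With median centring 0 genes were called in the interaction, with 240 at an unadjusted p under 0.05, and the count was 24 with loess and 77 with the processed signal. It ran from 7, without WT replicate 1 or PIM1 + WT replicate 1, over 22 without WT replicate 2 and 33 without PIM1 + WT replicate 2, to 160 without PIM1 + MM replicate 1.

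Within a single dye, PIM1 + WT and PIM1 + MM cells were each set against another group. Each comparison reuses samples on which the 32 were chosen, so the signs of the 32 are in part fixed by that choice. PIM1 + WT minus WT, both in Cy3, was positive for all 32 genes, with a median of 0.98, and 16 of them were called, where 323 of all genes (1.27%) were, 207 of them as higher (0.813%). At the adjusted p alone 29 of the 32 passed, and 13.4% of all genes passed it as higher. PIM1 + MM minus PIM1, both in Cy5, was negative for all 32, with a median of -0.58, and 25 passed the adjusted p (7.17% of all genes passed it as lower). Of the 32, 0 were called there by limma, where 19 of all genes (0.0746%) were, 4 of them as lower (0.0157%). PIM1 cells were the second highest group for 26 of the 32. ZYX shows this order. It read 12.47 to 12.61 in control and WT cells, 12.36 and 12.43 in MM cells, 13.77 and 13.70 in PIM1 cells, 14.07 and 14.08 in PIM1 + WT cells and 12.83 and 12.79 in PIM1 + MM cells. FLNC was unlike it, with 8.95 and 8.91 in PIM1 + WT, 8.46 to 8.78 in the other groups and 7.90 and 7.94 in PIM1 + MM cells, so that the fall of -0.79 against PIM1 cells was larger than the rise of 0.26 against WT cells. For 24 of the 32 the rise from WT to PIM1 + WT was larger than the fall from PIM1 to PIM1 + MM, and for 8, FLNC and EIF5A included, the fall was larger. PIM1 + MM was the lowest of the 6 groups for 11 genes and MM for 17, and over all 25471 genes for 3758 and 4519. Shares over all genes were not computed for the second highest group or the larger rise. Since the 32 were chosen on PIM1 + WT and PIM1 + MM samples, these counts are a description only. The count within Cy5 was 2 when fitted to the groups compared alone, 11 with loess, 1 with median centring, 131 without PIM1 replicate 2 and 139 without PIM1 + MM replicate 1.

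**Figure D3:**
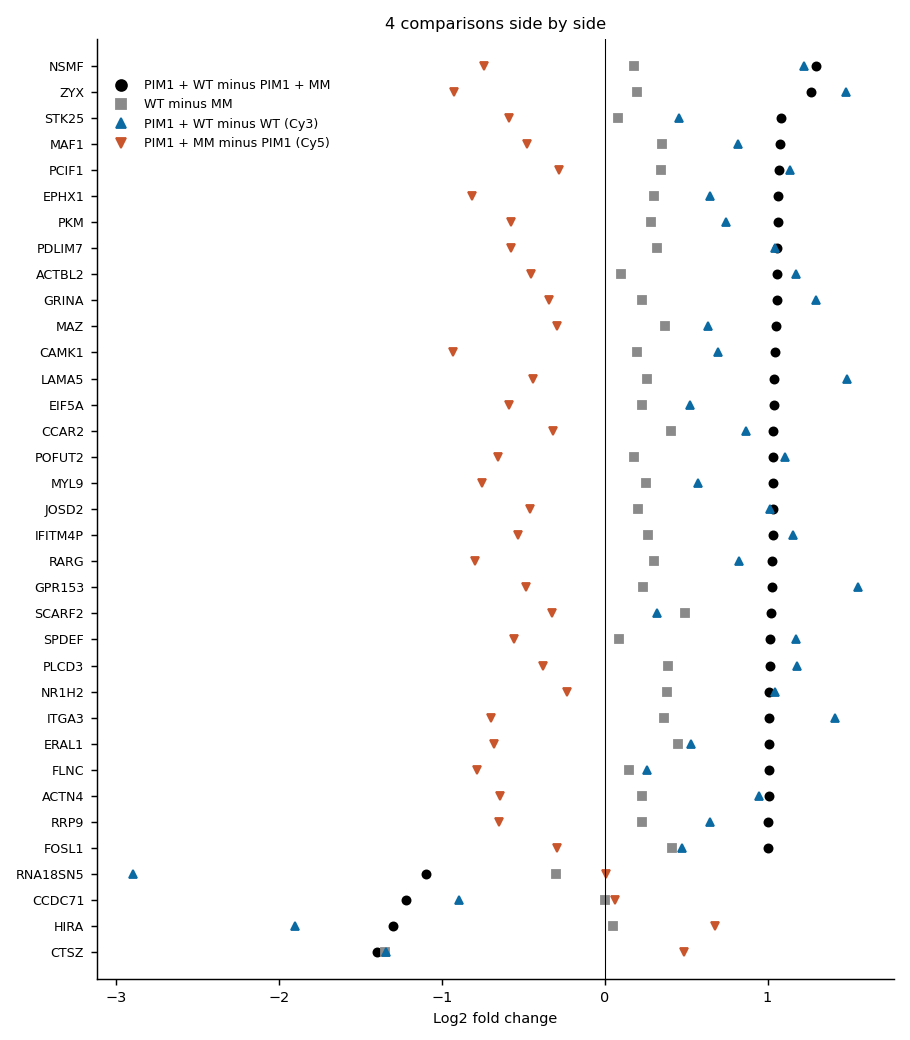
Log2 fold changes of 35 called genes outside the published list in 4 comparisons (NFATC1 is left out, because 1 of its probes was not above background in PIM1 cells). For the 31 upper genes WT minus MM (grey) lies between 0.08 and 0.49, PIM1 + WT minus WT (blue) between 0.26 and 1.56, and PIM1 + MM minus PIM1 (orange) between -0.93 and -0.23.

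On array 2, rows 1 to 33 had a median raw Cy5 signal, that of PIM1 + MM replicate 2, of 162 against 195 in the other rows. Among the brighter spots, the median difference on array 2 was 0.57 in these rows and -0.08 elsewhere, against 0.04 and -0.04 on array 1. Of the genes tested, 1050 (4.12%) had all their spots in these rows, and 17 of the 83 genes called higher (20.5%) did. These 17 had a median difference of 0.77 on array 1 and 1.48 on array 2, while the other 66 had 1.11 and 1.104. They comprised 9 of the published genes, 6 of the 10 probes without a symbol, and STK25 and RRP9 among the 32. STK25 differed by 0.54 on array 1 and 1.63 on array 2, and RRP9 by 0.53 and 1.48. For a gene with all its spots in these rows, leaving the rows out of that channel keeps 1 PIM1 + MM sample. STK25 then fell to 0.52 and RRP9 to 0.59, both under the fold threshold, and 3 of the 17 kept a log2 fold change of at least 1. MAZ and SCARF2 have 1 of their 2 probes in these rows, so that leaving the rows out of a single channel sets different probes against each other. With the rows left out of every channel, MAZ was at 1.38 and SCARF2 fell to 0.81 and was not called. SCARF2 had differed by 0.81 on array 1 and 1.24 on array 2. In that setting 30 of the 32 genes could be tested and 29 of them were called.

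The band of high differences did not end at row 33. In rows 34 to 44, where 399 genes had all their spots, 8 genes were called, all higher (2.01%, against 1.62% in rows 1 to 33 and 0.251% in the rows from 45 to 473 or spread over bands). They included ERAL1, IFITM4P, JOSD2 and MYL9 of the 32 and RAB11B, H1-10, GBA2 and OAF of the published list. With rows 1 to 44 left out of the channel, an alternative added after the row profile was seen, ERAL1 fell to 0.88, MYL9 to 0.91 and IFITM4P to 0.71, JOSD2 stayed at 1.03, and 25 of the 32 were called, MAZ not among them because of its unlike probes. For ERAL1, MYL9, IFITM4P and JOSD2 this setting keeps 1 PIM1 + MM sample. ACTN4, which has 10 spots and none in rows 1 to 33, moved from 1.01 to just under the threshold, at 0.985. At the other end of array 1, in rows 474 to 532, the median difference of bright spots was between -0.28 and -0.23, and 4 called genes had all their spots there. HIRA was one of them, with -1.50 on array 1 and -1.11 on array 2, and GPR153 and PLCD3, at 0.93 and 0.90 on array 1 and 1.12 and 1.13 on array 2, were others. The remaining one was a probe without a symbol, with 1.61 on array 1 and 0.53 on array 2.

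The 10 called probes without a matched symbol were all higher, by 1.02 to 1.31 with a median of 1.104. The highest, designed on the sequence CU676483, read 9.42 and 9.50 in PIM1 + WT and 8.05 and 8.26 in PIM1 + MM cells. The probe for AY927536 read 11.84 and 11.85 against 10.72 and 10.86 and, unlike the 32 named genes, differed nearly as much without stable PIM1, by 0.90 (limma adjusted p = 0.0014).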

How the data were processed

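Gene expression was measured in 12 PC-3 samples on 6 two-colour Agilent arrays. The authors deposited the raw intensity of each spot (Feature Extraction 11.0.1.1, per the file headers) and a table of log2 values, which differed from the quantile-normalized log2 median signal by at most 0.0844. The median signal of each spot was used in place of the planned mean signal. Spots with outlier flags were left out, spots of a probe were averaged on the log2 scale, and probes above the 90th percentile of 153 negative controls in at least 2 channels were kept (31484 of 34127). Channels were quantile normalized and the median was taken per symbol, matched through RefSeq (GRCh38.p14). A linear model with a mean for each group was fitted to all 12 samples with limma 3.58.1 (R 4.3.3), with two-sided p-values adjusted by the Benjamini-Hochberg method over 25471 genes. The fit was tested on simulated data. A group was taken as not well above background where the scanner software's flag was absent on both arrays.

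The genes named were PIM1, NFATC1, ITGA5, the called genes outside the published list, the 10 largest decreases, called list members and 3 reference genes; other list members are examples chosen after their values were seen. The members and lists were chosen with earlier results of these data known. Numbers of arrays limit the precision. Alternatives covered background correction, normalization, filters, outlier flags, the probe summary, blocks, the samples fitted, each sample left out, and rows left out. Oligo sequences came from the study's supplement and upstream sequences from RefSeq. A few genes are counted but not reported by name here.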

Additional observations from a re-analysis of the deposited data

Results flagged for a closer look

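For 9 named genes, the difference between WT and MM NFATC1 in cells with stable PIM1 differed from that in cells without it, by the interaction term of the limma fit with an adjusted p under 0.05 and a size of at least 1. CCDC71 stood at -1.22 (adjusted p = 0.004) and HIRA at -1.35 (adjusted p = 0.00638), the 2 that ran toward lower expression with WT NFATC1. NSMF stood at 1.12 and ZYX at 1.07. Of the genes on the published list, RAB11B stood at 1.44, SCAF1 at 1.12, MINK1 at 1.12, H1-10 at 1.04 and GBA2 at 1.03, the last with an adjusted p of 0.0422. RAB11B, H1-10 and GBA2 have all their spots in rows 34 to 44. Without rows 1 to 44 of PIM1 + MM replicate 2, which leaves them 1 PIM1 + MM sample, they fell to 1.48, 0.997 and 0.91 in the main contrast. H1-10 and GBA2 were then under the fold threshold.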

How the results depend on the processing

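Of the 32 genes called higher outside the published list, between 25 and 32 were called under each setting with all samples other than median centring. With median centring, which put the median of all genes at -0.11, 2 of them were called (JOSD2 and MAZ) and 0 turned in sign. Leaving out a sample left between 17 and 29 called. The sign turned in 4 of all gene and setting pairs: TBP at 0.037 (loess) and 0.19 (median centring), and, with the probe of the highest mean, PDLIM7 at -0.064 and INF2 of the published list at -0.355.

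The count of called genes in PIM1 + WT minus PIM1 + MM was 162 with loess, 21 with median centring and 350 with the processed signal, and between 68 and 245 when a sample was left out. The interaction gave 24, 0 and 77 in the same order, 25 with unadjusted p, and between 7 and 160 without a sample. PIM1 + WT minus WT gave 1041 with the processed signal, 45.7% of them higher, against 64.1% in the main setting and 35.6% with median centring, and between 302 and 384 without a sample. PIM1 + MM minus PIM1 gave 11 with loess, 1 with median centring, 221 with the processed signal, 2 in the fit of the groups compared alone, 36 with unadjusted p, and between 14 and 139 without a sample. The cause of these shifts was not tested.

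With the slide as a replicate block the count was 90, with all 88 genes shared. Deviations of same-slide samples on different arrays correlated at 0.051 to 0.172, so the slide was not taken to pair them. Samples on the same array correlated at 0.345 (PIM1 + WT with PIM1 + MM), 0.497 (WT with MM) and 0.834 (control with PIM1). The main fit leaves this pairing out. With the array as a fixed block the count was 99, and as a random block 98, each with all 88 shared. By limma, 9698 genes had an unadjusted p under 0.05 with the fixed block, against 7255 in the main fit. The array as a fixed block could not be fitted for the comparisons within a dye. Where a group is left with 1 sample, it is assumed to vary like the others. With 2 samples a group on dim Cy3 channels, differences well under 1 on the log2 scale rest on the pooled spread.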
